A study of Drosophila melanogaster with 12 samples.

Results

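The glutathione S-transferases (Gst genes) and the UDP-glycosyltransferases (Ugt genes) were followed across 3 genotypes of fly brain. Within the families members were taken by name, as every probe set assigned to 1 gene whose current symbol begins with Gst or Ugt. Each gene kept 1 probe set, the one with the highest mean over the 12 arrays. The choice of these families was made with earlier results of these data known. Of 70 genes with such names, 69 had a probe set, among 11982 genes that a single-gene probe set named on the array. They were 34 Gst genes, namely 11 of class D, 13 of class E, 1 of class S, 4 of class T, 2 of class Z and 3 of class O, and 35 Ugt genes. GstE8 had no probe set of its own.

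The brains came from female Drosophila melanogaster aged 3 days, in 4 samples per genotype described as independent, each a pool of about 20 brains without the eyes, lamina and outer medulla. All 3 genotypes carried elav-GAL4, which drives expression in neurons, and a UAS transgene for the red fluorescent protein DsRed. CAG0 flies carried 1 copy of UAS-DsRed-CAG0, whose 3′ untranslated region has no repeat. CAG100 flies carried 5 copies of UAS-DsRed-CAG100, with 100 CAG units, which the labels call toxic. CAA/G105 flies carried 2 copies of UAS-DsRed-CAA/G105, an interrupted repeat that the labels call non-toxic. The copies were chosen to match transgene mRNA, so repeat, copy number and the insertions that carry them cannot be told apart in any comparison here.

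Glutathione S-transferases join the tripeptide glutathione to electrophilic compounds, among them insecticides and products of lipid peroxidation. In insects the delta (GstD) and epsilon (GstE) classes are large, lie in gene clusters and are best known for detoxification, whereas the zeta class works in tyrosine breakdown and the omega class in reactions that resemble those of glutaredoxins. UDP-glycosyltransferases are membrane enzymes of the endoplasmic reticulum that attach a sugar from a UDP-sugar to small lipophilic molecules, which makes these easier to excrete. Many genes of both families are induced by foreign compounds or oxidative stress, in part through the transcription factor CncC, encoded by cnc, and its inhibitor Keap1.

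Expression is given as log2 per probe set, as deposited, with the SD over the 4 arrays of a genotype. Testing was limited to probe sets with 4 or more of the 12 arrays at log2 4 or above. It is called higher or lower where the Benjamini-Hochberg adjusted p of limma's moderated test, over all 8966 tested probe sets, was under 0.05. Differences between genotypes are given in log2 with the SE of the fit. Levels of different genes are not set against each other, since probe sets differ in brightness.

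The neuronal gene elav read between 13.65 and 13.86 on all arrays, and arrays of 1 genotype correlated at 0.9807 to 0.9947 over the tested probe sets, against 0.9656 to 0.9796 between genotypes. Akh, the adipokinetic hormone of the retrocerebral gland attached to the brain, was at 2.25 on CAG100 replicate 1, 2.43 on CAG100 replicate 3 and 2.06 on CAA/G105 replicate 3, and at 11.04 or above on the other 9 arrays. Among markers of other tissue, all 11 gut genes and 9 of 11 genes of olfactory appendages were under log2 4 on every array. None of 6 photoreceptor genes, 4 retrocerebral gland genes or the other 2 olfactory genes was called in any comparison. Such genes still gave signal that varied between arrays of 1 genotype. Averaged in log2, the photoreceptor genes lay at 9.04 to 10.02 in CAG0, 8.68 to 10.05 in CAG100 and 8.13 to 9.77 in CAA/G105. The averaged gland genes lay at 10.36 to 10.89, 5.63 to 10.09 and 5.77 to 11.10. The 4 gland genes summed to log2 13.38 to 14.03 in CAG0, 12.53 to 13.33 in CAG100 and 12.79 to 14.25 in CAA/G105. By this sum all CAG100 arrays lay below all CAG0 arrays. The median difference of the gland genes from CAG0 was -2.84 in CAG100 and -0.96 in CAA/G105. Muscle genes (8 tested) gave 1 lower call in CAA/G105 against CAG0 and 1 higher and 1 lower between the repeats. Their average lay at 6.35 to 8.40 in CAG0, 5.96 to 8.24 in CAG100 and 5.76 to 9.83 in CAA/G105. Malpighian tubule genes (3 tested) gave 1 lower call in CAA/G105.

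Fat body, haemocyte and glia, which express many detoxification genes, are the other cell types most relevant to these families. The log2 of the summed level of 10 tested fat body genes lay at 16.54 to 16.94 in CAG0, 16.80 to 16.98 in CAG100 and 16.58 to 16.74 in CAA/G105, with Apoltp and fon higher in CAG100 than in CAG0 and Yp3 higher in CAG100 than in CAA/G105. Fbp1, Fbp2 and LManVI were under log2 4 on every array. The 12 tested haemocyte genes summed to 15.32 to 15.69 in CAG0, 15.40 to 15.58 in CAG100 and 15.04 to 15.28 in CAA/G105, where Hml, SPARC, PPO1 and PPO2 fell against CAG0, and 3 of the list were higher in CAG100 than in CAA/G105. PPO3 was under log2 4 throughout. The 11 glial genes summed to 16.85 to 16.96, 16.85 to 16.93 and 16.92 to 16.94, with alrm lower in CAG100, and repo, moody, Mdr65 and AdamTS-A higher in CAA/G105 than in CAG0. Such sums weigh bright probe sets most. Averaged in log2, the glial genes lay at 12.39 to 12.52, 12.36 to 12.55 and 12.56 to 12.66, highest on all CAA/G105 arrays. Averaged haemocyte genes lay at 10.80 to 11.28, 10.87 to 11.16 and 10.26 to 10.81. By this average CAA/G105 lay wholly below CAG100 and overlapped CAG0 only at the edge. Averaged fat body genes overlapped in all 3 genotypes. Between the repeats 1 glial gene was higher and 3 were lower in CAG100. The part of these markers in the results below was not tested, and in pooled brains fewer cells of a type and less RNA per cell cannot be told apart.

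Of the 69 members, 35 passed the filter, 23 Gst and 12 Ugt. In the CAG100 brain 10 members were higher and 2 lower than in CAG0, 34.3% of those tested, where 18.3% of all tested probe sets were called (7.86% higher and 10.4% lower). That split, 705 higher and 934 lower, became 877 and 751 when the arrays were shifted to the same median, under which 11 members were higher and 2 lower. In the CAA/G105 brain 9 were higher and 2 lower than in CAG0, or 31.4% against 13.2% of all (5.49% higher and 7.72% lower). With the arrays at the same median, the split over all probe sets went from 492 higher and 692 lower to 603 and 586, and 10 members were higher and 2 lower. Between the repeats 5 members were higher and 7 lower in CAG100 than in CAA/G105, again 34.3%, against 20.8% of all (10.4% higher and 10.5% lower).

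The median difference of the 35 tested members was 0.14, 0.24 and 0.04 in these 3 comparisons, in that order, beside -0.03, -0.01 and -0.02 for all tested probe sets. Of the called changes, 8 of 12, 5 of 11 and 6 of 12 reached 1.5-fold. In all, 20 members were called in at least 1 comparison and 15 in none. In both repeat genotypes 6 members were called higher than in CAG0, which were GstD9, GstE1, GstE2, GstZ1, Ugt35C1 and Ugt302K1. No member was called lower in both, and GstD1 was called in opposite directions. The 2 comparisons with CAG0 share its arrays, so a member raised in both does not count as 2 independent results. GstZ1 and Ugt302K1 were under log2 4 on all CAG0 arrays and passed the filter through the repeat genotypes alone, so these counts describe the families and are not a test of them.

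**Figure D1:**
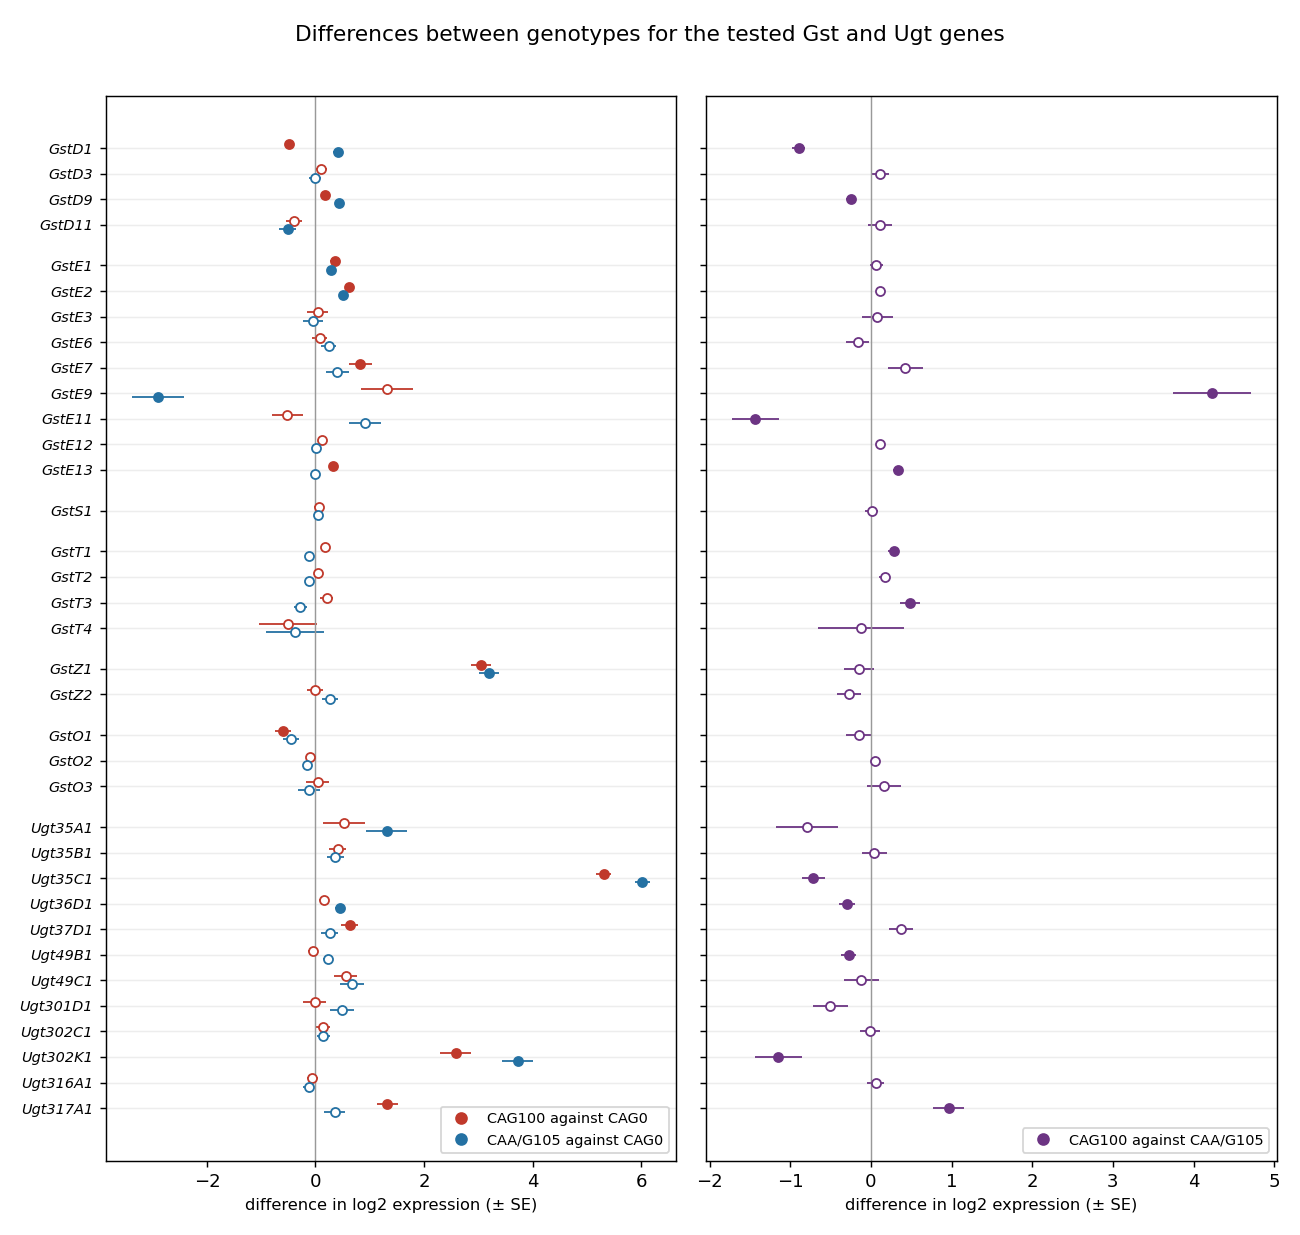
Difference in log2 expression (± SE) for the 35 tested Gst and Ugt genes, grouped by class, with CAG100 (red) and CAA/G105 (blue) against CAG0 on the left and CAG100 against CAA/G105 on the right. Filled points passed an adjusted p of 0.05 and open points did not. Ugt35C1, Ugt302K1 and GstZ1 lie to the right for both repeat genotypes, GstE9 lies at -2.91 for CAA/G105, and the 15 members called in no comparison have open points only.

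**Figure D2:**
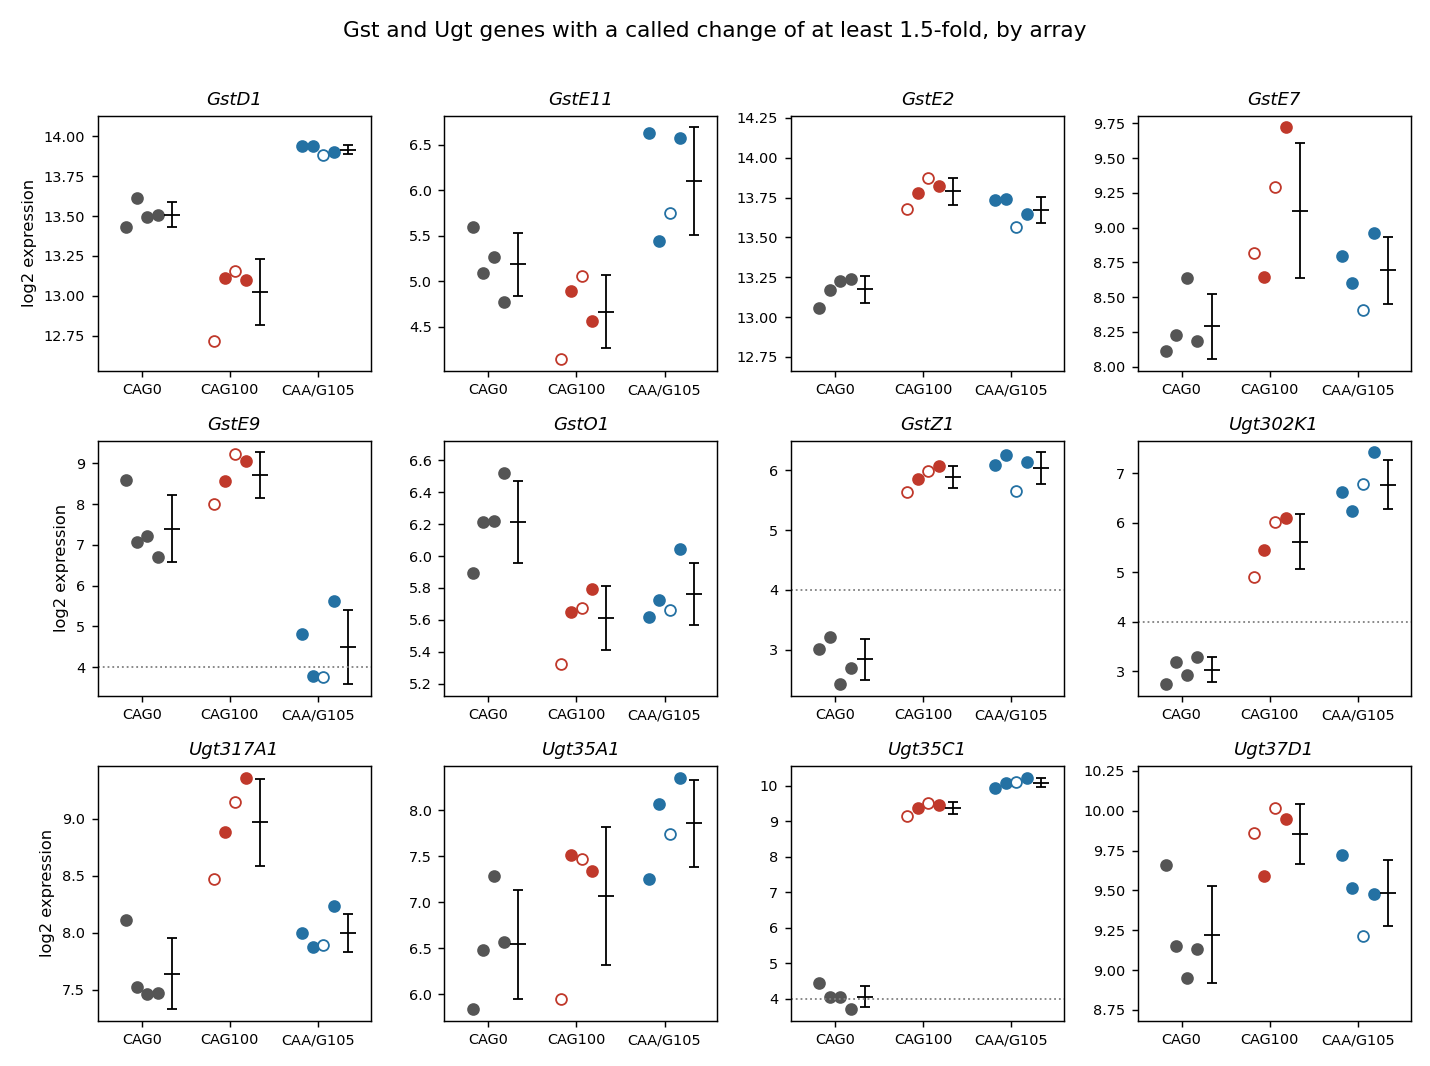
Log2 expression on each array for the 12 members with a called change of at least 1.5-fold, in CAG0 (grey), CAG100 (red) and CAA/G105 (blue), with the mean and SD beside the points and a dotted line at log2 4 where it falls in range. Open points are the 3 arrays without Akh signal, and each panel has its own vertical range. All 4 arrays of each repeat genotype lie above all CAG0 arrays for Ugt35C1, Ugt302K1, GstZ1 and GstE2, while GstE9 is low in CAA/G105.

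Among the delta class, 4 of 11 genes were tested, and 1 was higher and 1 lower in CAG100 than in CAG0, 2 higher and 1 lower in CAA/G105 than in CAG0, and 2 lower in CAG100 than in CAA/G105. The median difference of these 4 was -0.15, 0.20 and -0.07. Of all tested probe sets, 18.3%, 13.2% and 20.8% were called in these comparisons, and 4 genes are too few to set a class against them. GstD1, which removes chlorine from DDT and is widely used as a reporter of CncC activity, was the only member called lower in one repeat genotype and higher in the other. GstD1 read 13.43, 13.61, 13.49 and 13.50 in CAG0, 12.72, 13.11, 13.16 and 13.10 in CAG100, and 13.94, 13.94, 13.88 and 13.91 in CAA/G105. No array of any genotype overlapped those of another, with CAG100 lowest and CAA/G105 highest. GstD1 fell by 0.49 ± 0.08 in CAG100 (1.40-fold, limma adjusted p = 0.00128) and rose by 0.41 ± 0.08 in CAA/G105 (1.33-fold, adjusted p = 0.00483). The repeats differed by -0.89 ± 0.08, or 1.86-fold (limma adjusted p = 8.37e-06), and all 3 calls held under every alternative tried.

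GstD9, its neighbour in the cluster, rose in both repeat genotypes. It averaged 13.10 ± 0.09 in CAG0 (SD, n = 4), 13.28 ± 0.10 in CAG100 and 13.53 ± 0.06 in CAA/G105. The lowest CAG100 array, at 13.14, lay within the CAG0 range of 12.96 to 13.18, while all CAA/G105 arrays, from 13.46 to 13.61, lay above both. GstD9 was 0.43 ± 0.06 higher in CAA/G105 than in CAG0 (1.35-fold, limma adjusted p = 0.000327). Its difference of 0.18 ± 0.06 in CAG100 was at the edge of the threshold (1.14-fold, limma adjusted p = 0.0456) and was lost on leaving out any 1 of 9 arrays, which were all but CAG0 replicate 3, CAG100 replicate 1 and CAA/G105 replicate 3 (adjusted p 0.0508 to 0.126). Without the 3 arrays that lack Akh signal the difference was 0.21 (adjusted p = 0.0519). Other losses came without the filter on low values (limma adjusted p = 0.103), with a variance fitted without a trend (0.0762) and with 2 genotypes only (0.0825). The repeats differed by -0.25 ± 0.06 (1.19-fold, limma adjusted p = 0.0105), a call lost without the 3 arrays that lack Akh signal, where the difference was -0.19 (adjusted p = 0.0939).

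GstD11, at the far end of the cluster, fell in CAA/G105. It read 9.36 ± 0.19 in CAG0, 8.96 ± 0.13 in CAG100 and 8.84 ± 0.33 in CAA/G105, and the CAA/G105 range of 8.50 to 9.22 overlapped the CAG0 range of 9.11 to 9.57. Its difference from CAG0 was -0.51 ± 0.15 in CAA/G105 (1.43-fold, limma adjusted p = 0.0424) and -0.40 ± 0.15 in CAG100 (adjusted p = 0.0887). The call in CAA/G105 was lost on leaving out any 1 of 10 arrays, all but CAG0 replicate 3 and CAA/G105 replicate 1 (adjusted p 0.0516 to 0.113). Without the 3 arrays that lack Akh signal the difference was -0.40 (adjusted p = 0.158). The call was also lost without the filter on low values (limma adjusted p = 0.0933) and with 2 genotypes only (0.0891). GstD3 was not called, at 12.10 ± 0.16, 12.20 ± 0.22 and 12.09 ± 0.13 in CAG0, CAG100 and CAA/G105. The other 7 delta genes, GstD2, GstD4 to GstD8 and GstD10, were below log2 3 on every array.

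The epsilon class had 9 of 13 genes tested, and 4 were higher in CAG100 than in CAG0 with none lower, 2 were higher and 1 lower in CAA/G105, and 2 were higher and 1 lower in CAG100 than in CAA/G105. Its median difference was 0.32, 0.24 and 0.11. The shares called over all tested probe sets were 18.3%, 13.2% and 20.8%. GstE1 and GstE2, neighbours in the cluster and both able to conjugate glutathione to model substrates, were above CAG0 in both repeat genotypes. GstE2 read 13.06, 13.17, 13.22 and 13.24 in CAG0, 13.68, 13.78, 13.87 and 13.82 in CAG100, and 13.74, 13.74, 13.57 and 13.65 in CAA/G105. The repeat genotypes overlapped each other and lay wholly above CAG0. GstE2 rose by 0.61 ± 0.05 in CAG100 (1.53-fold, limma adjusted p = 8.79e-06) and by 0.50 ± 0.05 in CAA/G105 (1.41-fold, adjusted p = 4.80e-05), and the repeats differed by 0.12 ± 0.05 (adjusted p = 0.15).

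GstE1 showed smaller differences in the same direction. It ranged from 12.81 to 12.93 in CAG0, from 13.05 to 13.45 in CAG100 and from 13.07 to 13.31 in CAA/G105, so that both repeat genotypes lay above CAG0 on all arrays. GstE1 was 0.35 ± 0.08 higher in CAG100 (1.28-fold, limma adjusted p = 0.00948) and 0.29 ± 0.08 higher in CAA/G105 (1.22-fold, adjusted p = 0.0326). The second call was lost on leaving out any 1 of CAG0 replicates 1, 2 and 4 or CAA/G105 replicates 1, 2 and 4 (adjusted p 0.0537 to 0.0928). It was also lost without the filter on low values (limma adjusted p = 0.0796) and with a variance fitted without a trend (0.0509).

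GstE9, the last gene of the cluster, had the largest difference between the repeats among the members. GstE9 read 8.59, 7.07, 7.22 and 6.71 in CAG0, 7.99, 8.57, 9.24 and 9.06 in CAG100, and 4.81, 3.77, 3.75 and 5.63 in CAA/G105. All CAA/G105 arrays lay below every other array, 2 of them under log2 4, while CAG0 replicate 1 reached into the CAG100 range. GstE9 fell by 2.91 ± 0.48 in CAA/G105 (7.51-fold, limma adjusted p = 0.00145) and was 4.23 ± 0.48 higher in CAG100 than in CAA/G105 (18.7-fold, adjusted p = 5.74e-05). Its difference of 1.32 ± 0.48 between CAG100 and CAG0 did not pass (adjusted p = 0.0793). A second probe set for GstE9 read near 2.2 on all arrays and was not tested, so the change rests on 1 probe set.

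GstE7, of the same cluster, rose in CAG100. GstE7 read 8.11, 8.23, 8.63 and 8.19 in CAG0, 8.82, 8.65, 9.29 and 9.72 in CAG100, and 8.79, 8.60, 8.41 and 8.96 in CAA/G105. CAG100 lay wholly above CAG0, by as little as the gap between 8.63 and 8.65, and CAA/G105 overlapped both. The difference was 0.83 ± 0.22 in CAG100 (1.78-fold, limma adjusted p = 0.0193) and 0.40 ± 0.22 in CAA/G105 (adjusted p = 0.269). The call was lost without the 3 arrays that lack Akh signal (0.90, adjusted p = 0.0682), and also on leaving out CAG0 replicate 4 (0.0545) or CAG100 replicate 3 (0.0585).

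GstE11 and GstE13 lie outside the cluster. GstE11 read 5.60, 5.10, 5.27 and 4.78 in CAG0, 4.15, 4.90, 5.06 and 4.56 in CAG100, and 6.63, 5.44, 5.75 and 6.57 in CAA/G105. The repeat genotypes did not overlap, and CAG0 lay between them and overlapped both. GstE11 was lower in CAG100 than in CAA/G105 by -1.43 ± 0.29 (2.70-fold, limma adjusted p = 0.00425), and neither genotype passed against CAG0 (adjusted p = 0.244 and 0.0592). GstE13 averaged 11.57 ± 0.04 in CAG0, 11.90 ± 0.07 in CAG100 and 11.56 ± 0.12 in CAA/G105, and the CAG100 arrays, from 11.81 to 11.98, lay above all others. It was 0.32 ± 0.06 higher in CAG100 than in CAG0 (1.25-fold, limma adjusted p = 0.00273) and 0.34 ± 0.06 higher than in CAA/G105 (1.26-fold, adjusted p = 0.0017), the latter lost without the 3 arrays that lack Akh signal (0.28, adjusted p = 0.0579).

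The remaining 3 tested epsilon genes were called in no comparison. GstE3 averaged 10.68 ± 0.09, 10.72 ± 0.42 and 10.63 ± 0.30 in CAG0, CAG100 and CAA/G105. GstE6 averaged 11.32 ± 0.04, 11.40 ± 0.27 and 11.56 ± 0.27, and GstE12 13.60 ± 0.10, 13.72 ± 0.06 and 13.61 ± 0.09. GstE4, GstE5, GstE10 and GstE14 were below log2 3 on every array. GstE14 acts in ecdysone synthesis, a process of the larval prothoracic gland.

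GstZ1 had the largest rise among the Gst genes. The zeta class, of which it is one of 2 members, corresponds to maleylacetoacetate isomerase, an enzyme of tyrosine breakdown. GstZ1 read 3.00, 3.21, 2.42 and 2.70 in CAG0, 5.64, 5.85, 5.99 and 6.07 in CAG100, and 6.09, 6.25, 5.65 and 6.14 in CAA/G105. Every repeat array lay above log2 5 and every CAG0 array under log2 4. Set against log2 4, GstZ1 was at least 3.70-fold higher in CAG100 and at least 4.09-fold higher in CAA/G105. The fit gave differences of 3.05 (limma adjusted p = 2.18e-07) and 3.20 (adjusted p = 1.52e-07). These use CAG0 values under log2 4, so the p-values do not test the bounds. GstZ1 passed the filter through the repeat genotypes alone. The repeats overlapped and differed by -0.15 ± 0.18 (adjusted p = 0.611). GstZ2, which lies beside it, was not called, at 6.20 ± 0.17, 6.19 ± 0.14 and 6.46 ± 0.28 in CAG0, CAG100 and CAA/G105.

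In the omega class only GstO1 was called. GstO1 read 5.89, 6.21, 6.22 and 6.52 in CAG0, 5.33, 5.65, 5.67 and 5.79 in CAG100, and 5.62, 5.72, 5.66 and 6.05 in CAA/G105. The CAG100 arrays lay below all CAG0 arrays, and 1 CAA/G105 array reached into the CAG0 range. GstO1 fell by 0.60 ± 0.15 in CAG100 (1.52-fold, limma adjusted p = 0.0174), and its difference of -0.45 ± 0.15 in CAA/G105 did not pass (adjusted p = 0.0758). The call was lost without CAG0 replicate 4 (adjusted p = 0.055), without the 3 arrays that lack Akh signal (difference -0.49, adjusted p = 0.135) and without the filter on low values (adjusted p = 0.0666). GstO2 averaged 12.62 ± 0.07, 12.53 ± 0.08 and 12.47 ± 0.06 in CAG0, CAG100 and CAA/G105, and GstO3 averaged 9.34 ± 0.34, 9.38 ± 0.29 and 9.22 ± 0.36. Neither was called.

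All 4 theta genes were tested, and none was called against CAG0, while GstT1 and GstT3 were higher in CAG100 than in CAA/G105. Over all tested probe sets 18.3% and 13.2% were called against CAG0 in CAG100 and CAA/G105, and 20.8% between the repeats. GstT1 ranged from 10.85 to 10.94 in CAG100 and from 10.52 to 10.71 in CAA/G105, a difference of 0.28 ± 0.06 (1.21-fold, limma adjusted p = 0.00917). GstT3 ranged from 10.87 to 11.39 and from 10.34 to 10.80, a difference of 0.49 ± 0.12 (1.40-fold, adjusted p = 0.0129). In CAG0 GstT1 ranged from 10.61 to 10.86 and GstT3 from 10.86 to 10.99. All CAA/G105 arrays of GstT3 lay below all CAG0 arrays, at a difference of -0.28 ± 0.12 that did not pass (limma adjusted p = 0.16). The repeat genotypes did not overlap for either gene, but both calls were lost without the 3 arrays that lack Akh signal, where the differences were 0.22 and 0.53 (limma adjusted p = 0.161 and 0.0712). GstT2 was not called, at 10.52 ± 0.10, 10.57 ± 0.08 and 10.40 ± 0.12 in CAG0, CAG100 and CAA/G105.

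GstT4, the fourth theta gene, varied within genotypes. GstT4 read 10.75, 10.12, 10.32 and 10.45 in CAG0, 9.18, 10.43, 9.58 and 10.46 in CAG100, and 11.65, 10.56, 8.62 and 9.31 in CAA/G105. The lowest arrays of both repeat genotypes were among those without Akh signal, namely CAG100 replicates 1 and 3 and CAA/G105 replicate 3, and no comparison was called. GstS1, the only sigma member, which conjugates the lipid peroxidation product 4-hydroxynonenal, averaged 11.69 ± 0.11, 11.75 ± 0.08 and 11.74 ± 0.17 in CAG0, CAG100 and CAA/G105 and was not called.

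Of the 35 Ugt genes 12 were tested. In CAG100 4 were higher than in CAG0 and none lower, in CAA/G105 4 were higher and none lower, and between the repeats 1 was higher and 4 were lower in CAG100. The median difference of the 12 was 0.47, 0.41 and -0.20. Beside these counts, 18.3%, 13.2% and 20.8% of all tested probe sets were called. The substrates of most fly Ugt enzymes are little known.

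Ugt35C1, formerly named Ugt86Dd and linked in larvae to resistance to nicotine, had the largest change of any member. Ugt35C1 read 4.44, 4.04, 4.05 and 3.71 in CAG0, 9.13, 9.37, 9.52 and 9.45 in CAG100, and 9.93, 10.08, 10.09 and 10.23 in CAA/G105. CAG0 stood near the floor of log2 4, CAG100 far above it, and every CAA/G105 array above every CAG100 array. Ugt35C1 rose by 5.31 ± 0.14 in CAG100 (39.6-fold, limma adjusted p = 8.20e-11) and by 6.02 ± 0.14 in CAA/G105 (65.1-fold, adjusted p = 2.70e-11). Between the repeats it was -0.72 ± 0.14 lower in CAG100 (1.64-fold, limma adjusted p = 0.00382), a call lost without the 3 arrays that lack Akh signal, where the difference was -0.67 (adjusted p = 0.0647).

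Ugt302K1, a close neighbour of Ugt35C1, had the same order of genotypes. Ugt302K1 read 2.74, 3.19, 2.93 and 3.29 in CAG0, 4.91, 5.46, 6.02 and 6.09 in CAG100, and 6.62, 6.24, 6.79 and 7.42 in CAA/G105. The 3 genotypes did not overlap, with CAG0 under log2 4 on all arrays and CAA/G105 highest. Set against log2 4, Ugt302K1 was at least 3.08-fold higher in CAG100 and at least 6.81-fold higher in CAA/G105. The fitted differences were 2.58 (limma adjusted p = 6.63e-05) and 3.73 (adjusted p = 2.19e-06). Here too the p-values rest on CAG0 values under log2 4 and do not test the bounds, and the filter was passed through the repeat genotypes alone. The repeats differed by -1.15 ± 0.29 (2.21-fold, limma adjusted p = 0.0136), which also lost its call without the 3 arrays that lack Akh signal, at a difference of -0.98 (adjusted p = 0.103).

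Ugt317A1 and Ugt37D1 rose in CAG100. Ugt317A1 read 8.11, 7.53, 7.46 and 7.47 in CAG0, 8.47, 8.89, 9.15 and 9.36 in CAG100, and 8.002, 7.88, 7.89 and 8.23 in CAA/G105. All CAG100 arrays lay above all others, and CAA/G105 overlapped CAG0 through CAG0 replicate 1. Ugt317A1 was 1.32 ± 0.19 higher in CAG100 than in CAG0 (2.50-fold, limma adjusted p = 0.000557) and 0.97 ± 0.19 higher than in CAA/G105 (1.95-fold, adjusted p = 0.00393), while CAA/G105 differed from CAG0 by 0.36 ± 0.19 (adjusted p = 0.273).

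Ugt37D1 read 9.66, 9.15, 8.95 and 9.13 in CAG0, 9.86, 9.59, 10.02 and 9.95 in CAG100, and 9.72, 9.51, 9.22 and 9.48 in CAA/G105. CAG100 overlapped both other genotypes by 1 array. Ugt37D1 rose by 0.63 ± 0.15 in CAG100 (1.55-fold, limma adjusted p = 0.0139), a call lost without the 3 arrays that lack Akh signal (0.55, adjusted p = 0.103), and was not called in CAA/G105 (adjusted p = 0.321). Its probe set is of the type that Affymetrix marks as shared between transcripts.

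Ugt35A1 and Ugt36D1 rose in CAA/G105. Ugt35A1 read 5.84, 6.48, 7.29 and 6.57 in CAG0, 5.95, 7.51, 7.47 and 7.33 in CAG100, and 7.26, 8.07, 7.74 and 8.35 in CAA/G105. All 3 genotypes overlapped. Ugt35A1 was 1.31 ± 0.38 higher in CAA/G105 than in CAG0 (2.48-fold, limma adjusted p = 0.041), and its difference in CAG100 was 0.52 ± 0.38 (adjusted p = 0.376). The call was lost on leaving out any 1 of CAG0 replicates 1, 2 and 4, CAG100 replicate 4 and CAA/G105 replicates 2, 3 and 4 (adjusted p 0.0536 to 0.11). It was also lost without the filter on low values (limma adjusted p = 0.105) and with a variance fitted without a trend (0.0531).

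Ugt36D1 averaged 8.97 ± 0.05 in CAG0, 9.14 ± 0.20 in CAG100 and 9.43 ± 0.08 in CAA/G105. All CAA/G105 arrays, from 9.38 to 9.55, lay above the CAG0 range of 8.92 to 9.05, and 1 CAG100 array, at 9.42, lay among them. Ugt36D1 was 0.46 ± 0.09 higher in CAA/G105 than in CAG0 (1.37-fold, limma adjusted p = 0.00638). Between the repeats it was -0.30 ± 0.09 lower in CAG100 (1.23-fold, adjusted p = 0.0439), a call lost on leaving out any 1 of 10 arrays, all but CAG0 replicate 3 and CAG100 replicate 3 (adjusted p 0.0535 to 0.122). That call was also lost without the filter on low values (limma adjusted p = 0.0747) and with 2 genotypes only (0.0784).

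Ugt49B1 was called only between the repeats, at 10.18 ± 0.11 in CAG0, 10.13 ± 0.09 in CAG100 and 10.40 ± 0.17 in CAA/G105. The repeat genotypes overlapped, and the difference of -0.28 ± 0.09 (1.21-fold, limma adjusted p = 0.0433) was lost on leaving out any 1 of CAG0 replicates 1 and 2, CAG100 replicates 1, 2 and 4 and CAA/G105 replicates 1, 2 and 4 (adjusted p 0.0531 to 0.125). Further losses came without the filter on low values (limma adjusted p = 0.0759), with quantile normalization (0.0598), with a replicate block (0.0805) and with 2 genotypes only (0.0601).

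The other 5 tested Ugt genes were called in no comparison. Ugt35B1 averaged 13.44 ± 0.32, 13.85 ± 0.20 and 13.81 ± 0.22 in CAG0, CAG100 and CAA/G105, and Ugt49C1 averaged 8.19 ± 0.33, 8.74 ± 0.32 and 8.86 ± 0.39. Ugt301D1 averaged 7.88 ± 0.50, 7.86 ± 0.26 and 8.37 ± 0.17. Both repeat means of Ugt35B1 and Ugt49C1 lay above CAG0, without passing the test. Ugt302C1 averaged 10.02 ± 0.10, 10.16 ± 0.25 and 10.17 ± 0.17, and Ugt316A1 9.11 ± 0.21, 9.05 ± 0.07 and 8.99 ± 0.09.

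The 23 Ugt genes below the filter were Ugt302E1, Ugt303A1, Ugt303B1, Ugt303B2, Ugt303B3, Ugt304A1, Ugt305A1, Ugt307A1, Ugt35D1, Ugt35E1, Ugt35E2, Ugt36A1, Ugt36E1, Ugt36F1, Ugt37A1, Ugt37A2, Ugt37A3, Ugt37B1, Ugt37C1, Ugt37C2, Ugt37E1, Ugt49B2 and Ugt50B3. With the 11 Gst genes they made 34 members without a test, of which 32 lay between 1.98 and 2.84 on every array. The exceptions were Ugt35E2 and Ugt50B3. Ugt35E2 read 2.39, 4.46, 2.95 and 4.33 in CAA/G105, against 2.29 to 2.53 in CAG0 and 2.32 to 3.27 in CAG100. Ugt50B3 read 3.20, 3.04, 2.80 and 2.73 in CAG100, below both CAG0 (3.48 to 4.02) and CAA/G105 (3.65 to 3.95) on every array. Neither was tested.

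Many members lie side by side, and neighbours differed in whether they were measured and in how they moved. Runs were read from the order of protein-coding genes, with at most 3 other genes between successive members. On arm 3R a run of 10 Ugt genes with 5 tested begins with Ugt35C1 and Ugt302K1, the 2 members of the run called in both repeat genotypes. Ugt35A1, further along, was called in CAA/G105 alone, and Ugt302C1 and Ugt35B1 in neither. The run of 11 GstD genes, also on 3R, had GstD9, GstD1, GstD3 and GstD11 tested. GstD9 and GstD1, side by side, moved in opposite directions in CAG100, though the GstD9 rise was at the edge of the threshold. In the GstE run on arm 2R, 6 of 9 genes with a probe set were tested, and GstE9 fell in CAA/G105 while GstE1 and GstE2 rose.

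The nearest tested genes outside the families, 5 on each side, were set beside the 12 members with a called change of at least 1.5-fold. Ugt35C1, Ugt302K1 and Ugt35A1 share the same 10 neighbours. None of the 10 was called in CAA/G105 against CAG0 or between the repeats. Among them cu alone was called in CAG100 against CAG0, and fell by 0.41 (limma adjusted p = 0.0342). Around GstZ1 1 of 10 (betaTub85D) was higher and 1 lower in CAG100 against CAG0 and between the repeats, and 1 was lower in CAA/G105. Around GstE9 2 of 10 (BomS2 and Ttd14) were higher in CAG100 against CAG0, none was called in CAA/G105 against CAG0, and 3 were higher in CAG100 than in CAA/G105. GstE2 and GstE7 have the same 10 neighbours as GstE9, so their counts are the same ones. Around GstO1 2 of 10 (ergic53 and CG43078) were lower in CAG100 against CAG0, 1 was higher in CAA/G105, and 4 were lower in CAG100 than in CAA/G105. Around Ugt37D1 2 were higher and 2 lower in CAG100, 1 was lower in CAA/G105, and 2 were higher and 1 lower between the repeats. One of these, CG13284, fell from a mean of 9.66 in CAG0 to 2.85 in CAG100 (limma adjusted p = 1.21e-10) and 8.13 in CAA/G105 (adjusted p = 0.000163). Around Ugt317A1 1 was higher and 1 lower in each comparison. Around GstE11 1 was higher in CAG100, 2 were lower in CAA/G105 and 3 were higher between the repeats. Around GstD1 1 was higher between the repeats alone. Over all tested probe sets 18.3% were called in CAG100 against CAG0, 13.2% in CAA/G105 against CAG0 and 20.8% between the repeats. With 10 neighbours each, most of these counts are close to those shares. They were taken after the members' values were seen and are a description.

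**Figure D3:**
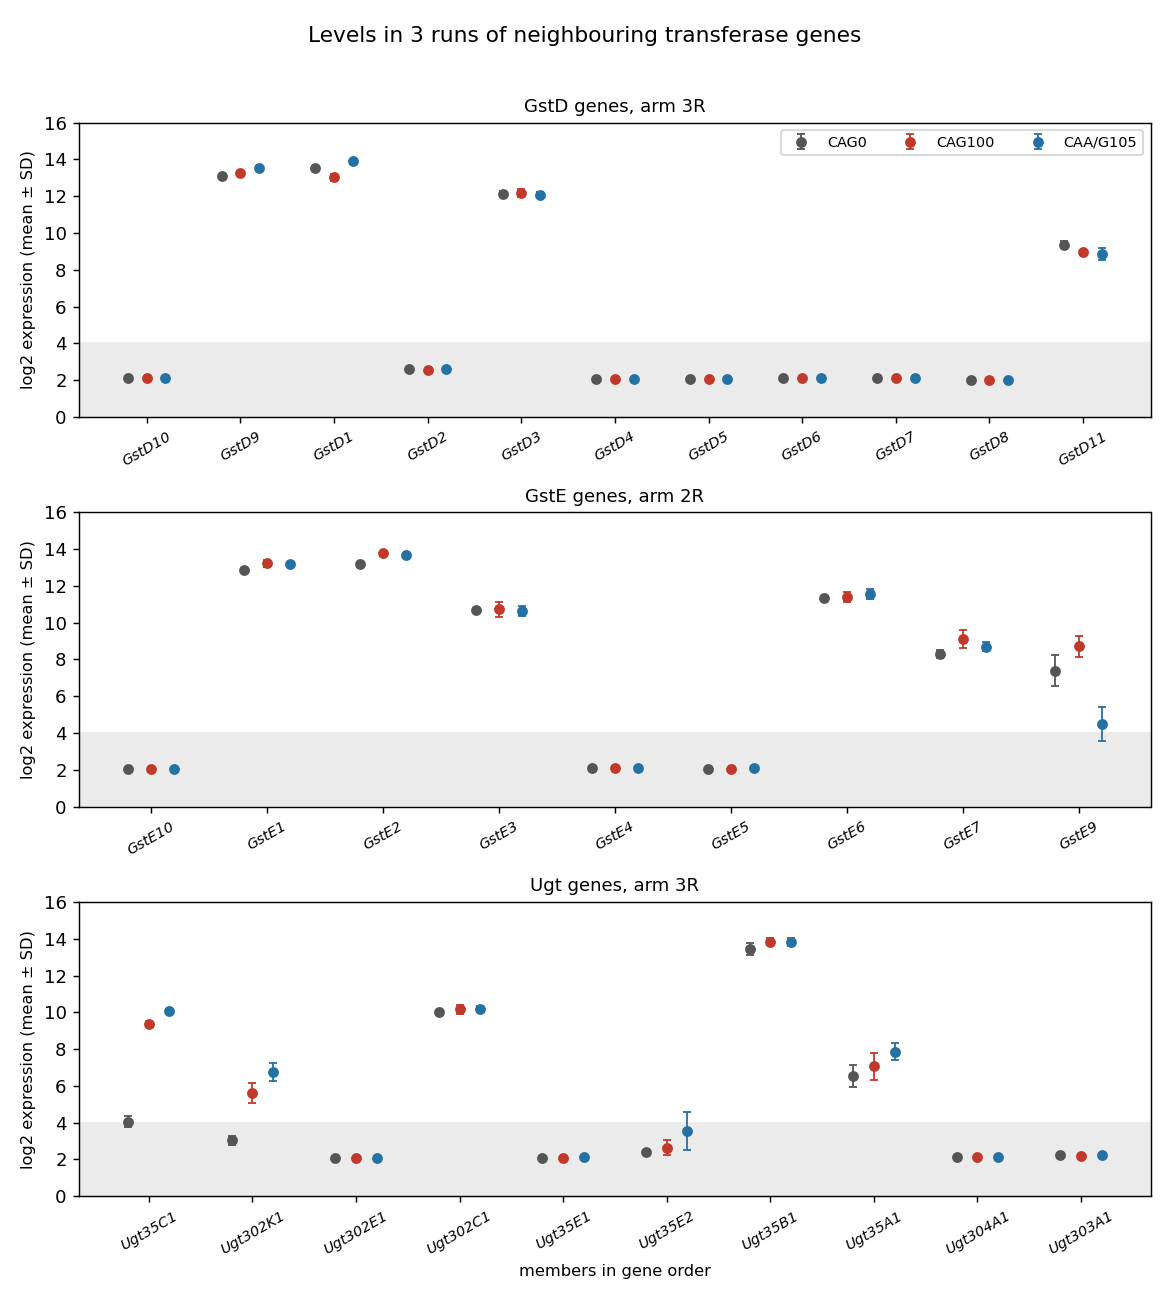
Mean log2 expression (± SD, n = 4) in CAG0 (grey), CAG100 (red) and CAA/G105 (blue) for the GstD genes on arm 3R, the GstE genes on arm 2R and the Ugt genes on arm 3R, in gene order and not to distance, with the grey band below log2 4. In each run members well above log2 4 lie between members near log2 2, and Ugt35C1 and Ugt302K1, first in the Ugt run, are low in CAG0 alone.

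By chromosome arm, the 11 tested members on 3R gave 4 higher and 1 lower calls in CAG100 against CAG0, 6 higher and 1 lower in CAA/G105 against CAG0, and 0 higher and 4 lower in CAG100 against CAA/G105. The 15 tested members on 2R gave 5 higher and 0 lower, 2 higher and 1 lower, and 4 higher and 2 lower. On 2L, 3L and X 3, 4 and 2 members were tested, with at most 1 call per arm in any comparison. Over all tested probe sets, on any arm, 18.3%, 13.2% and 20.8% were called in these comparisons. No such share is given by arm, and the difference between arms was not tested.

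The genes that supply both families were measured alongside. For every list from here on, the shares called over all tested probe sets were 18.3% in CAG100 against CAG0, 13.2% in CAA/G105 against CAG0 and 20.8% between the repeats. These lists are short, and their counts are a description. Glutathione synthesis and recycling had 7 genes tested, with 1 higher and 2 lower in CAG100, 1 higher and 1 lower in CAA/G105, and 1 lower in CAG100 than in CAA/G105, and medians of -0.03, 0.11 and -0.06. The glutaredoxin Grx1, which reduces mixed disulphides with glutathione, rose by 0.27 ± 0.05 in CAG100 (limma adjusted p = 0.00322) and 0.33 ± 0.05 in CAA/G105 (adjusted p = 0.000829). Ggt-1, a gamma-glutamyl transferase that breaks glutathione down, fell by 0.47 ± 0.09 (adjusted p = 0.00442) and 0.34 ± 0.09 (adjusted p = 0.0318). Gclm, the modifier subunit of the enzyme that begins glutathione synthesis, fell by 0.32 ± 0.10 in CAG100 (limma adjusted p = 0.0448), and Gclc, its catalytic partner, was not called.

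UDP-sugar supply had 7 genes tested, with 1 higher in CAG100, none called in CAA/G105 and 2 higher in CAG100 than in CAA/G105, and medians of 0.04, -0.02 and 0.07. The gene that passed against CAG0 was sgl, whose UDP-glucose dehydrogenase makes the UDP-glucuronate used by several glycosylation pathways. It was 0.58 ± 0.07 higher in CAG100 than in CAG0 (1.49-fold, limma adjusted p = 0.000193) and 0.46 ± 0.07 higher than in CAA/G105 (adjusted p = 0.000832). UGP, which makes UDP-glucose, was higher in CAG100 than in CAA/G105, at means of 5.45 and 3.34 (limma adjusted p = 0.00177). The lower mean is under log2 4, so the size of that difference is uncertain.

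Among regulators of detoxification genes 10 were tested, and cnc, maf-S, whose product pairs with CncC, Keap1 and the xenobiotic receptor Hr96 were called in no comparison. Against CAG0, 2 of the 10 were lower in CAG100, close to the 18.3% called of all tested probe sets. They were tgo (-0.25 ± 0.06, limma adjusted p = 0.0186) and Atf3 (-0.35 ± 0.11, adjusted p = 0.04). In CAA/G105 1 was higher, foxo (0.35 ± 0.09, adjusted p = 0.0229), and foxo and Atf3 were lower in CAG100 than in CAA/G105. Of 5 tested transferase-like genes outside the naming rule, eEF1gamma alone was called, 0.12 ± 0.03 higher in CAG100 (limma adjusted p = 0.0259). Of 9 tested phase I enzymes and exporters, which act before and after conjugation, none was called in CAG100 against CAG0. In CAA/G105 Mdr65 was higher and Cyp6a2 lower (-1.07 ± 0.13), and between the repeats 2 were higher and 1 lower in CAG100.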

How the data were processed

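RNA from brains of CAG0, CAG100 and CAA/G105 flies was amplified (NuGEN Ovation Pico WTA), labelled with biotin and hybridised to 1 Affymetrix array per sample, per the labels. The deposited log2 values per probe set, made with GCRMA and Partek per the submitters' processing notes (no version given), lay between 1.75 and 16 and were used unchanged. GCRMA removes background by probe sequence, which affects low values most, so log2 4 served as a floor. With 4 arrays per genotype, array number sets the precision, and depth has no meaning here.

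Of 18952 probe sets, 183 are controls, 13647 name 1 gene, 402 several and 4720 none. Names came from the platform annotation, and 13544 single-gene probe sets were found in a RefSeq gene table (Release 6 plus ISO1 MT), used for current symbols and gene order. The arrays' build is not given in the sources used here, so positions are not printed, and no sequences were used. Members were all genes whose symbol begins with Gst or Ugt. Any could be named, with values per array where a called change reached 1.5-fold. For lists up to 4 called genes were named. The members and lists were chosen with earlier results of these data known.

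One model with 3 genotype means over 12 arrays was fitted with limma 3.58.1 (R 4.3.3; eBayes with a trend) to the 8966 probe sets at log2 4 or above on at least 4 arrays (9803 left out), with Benjamini-Hochberg adjustment over all of them. The scripts were tested on simulated data. A genotype under log2 4 on all its arrays gives a bound against log2 4. Alternatives were each array left out, other filters, normalizations and variance models, a replicate block, 2 genotypes only, and leaving out the 3 arrays without Akh signal.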

Additional observations from a re-analysis of the deposited data

Results flagged for a closer look

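Over the 35 tested members in 3 genotypes, 4 sets of 4 arrays held an array that stood far from the other 3 by Dixon's test at its usual critical value. Chance picks out about 1 in 20 such sets, or 5.25 of those examined. GstD1 was lowest on CAG100 replicate 1, at 12.72 against 13.10 to 13.16 on the others, and Ugt35A1 was also lowest there, at 5.95 against 7.33 to 7.51. This array is one of the 3 without Akh signal. GstZ2 was highest on CAA/G105 replicate 2, at 6.89 against 6.29 to 6.36. Ugt317A1 was highest on CAG0 replicate 1, at 8.11 against 7.46 to 7.53.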

How the results depend on the processing

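Of 35 called differences of members, 20 passed under all 21 alternatives, 15 were lost under at least 1 and 0 reversed direction. Leaving out the 3 arrays without Akh signal, which also leaves fewer arrays, lost 11, and 7 of these were lost under nothing else. It reduced the members called between the repeats from 12 to 6 (2 higher, 4 lower), while all probe sets called went from 1639 to 948, from 1184 to 855 and from 1869 to 924 in CAG100 against CAG0, CAA/G105 against CAG0 and between the repeats. Leaving out each array in turn gave 9 to 14 members called in CAG100 against CAG0, 8 to 12 in CAA/G105 against CAG0 and 10 to 12 between the repeats. The other alternatives gave 8 to 16, 8 to 15 and 6 to 13. The share of all probe sets called moved as well. In the same order of comparisons it was 12.5% to 21.7%, 9.75% to 17.1% and 15.1% to 24% leaving out 1 array. Under the other alternatives it was 6.73% to 26.6%, 4.94% to 17.8% and 8.44% to 28.6%. No called member had a second tested probe set, so no call could be checked on another. The second probe set of GstE9 read near 2.2 on all arrays and showed no such difference. With the replicate number as a block 14, 14 and 12 members were called, beside 16.4%, 12.2% and 19.3% of all probe sets. Under the block 1 call (Ugt49B1 between the repeats, limma adjusted p = 0.0805) was lost. No label says that these numbers mark a shared batch, and deviations of same-numbered samples correlated at -0.259 to 0.39, with 3 of 12 pairs over 0.1. Signals near log2 4 limit the sizes given for GstE9, GstZ1, Ugt302K1, Ugt35C1 and UGP in their low genotypes.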
